A study of Mus musculus with 6 samples.

Results

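The 9 genes described here encode the core of the Myc network, namely the activators Myc, Mycn and Mycl, their partner Max, and the antagonists Mxd1, Mxd3, Mxd4, Mxi1 and Mnt. They were chosen by symbol, and all 9 were present among the 21960 genes of the deposited counts. RNA-Seq libraries came from TuBo cells, an epithelial line that grew out of a mammary tumor of a BALB/c mouse carrying the MMTV-NeuT transgene, in which a mammary promoter drives activated rat HER2. In the 3 p140Cap libraries, the cells carried a retroviral p140Cap cDNA under puromycin selection and were a pool of clones grown from single cells, whereas the 3 mock libraries came from control TuBo cells of the same line. The study pooled the clones with the aim of excluding clonal artifacts, and it does not state whether the mock cells were cloned. Clonal selection and p140Cap expression therefore cannot be told apart. Nothing in the labels marks the libraries of a group as separate cultures, so that p-values measure the spread between these libraries only.

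Myc-family proteins bind DNA as heterodimers with Max through a basic helix-loop-helix zipper domain, prefer the E-box CACGTG, and raise transcription of genes for ribosome production, nucleotide synthesis and cell cycle entry. Mxd proteins and Mnt also pair with Max, occupy the same E-boxes and recruit the Sin3-HDAC corepressor. In many tissues Myc is high in growing cells, while Mxd1, Mxd4 and Mxi1 increase as cells leave the cycle and differentiate. Mxd3 is the member of its family that is known for expression in S phase, and Mnt is broadly expressed.

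The libraries held between 13770385 and 75506562 reads on genes, and every mock library was deeper than every p140Cap library. Srcin1, the gene of p140Cap, had 509 to 1192 reads in mock cells and 30546 to 36989 in p140Cap cells, with a log2 fold change of 7.29 (SE 0.09). Of 6 mammary epithelial markers, 5 were expressed and summed to 5240 to 5570 reads per 1000000 (CPM, scaled by the TMM-adjusted library size) in mock and 6180 to 6340 CPM in p140Cap libraries, while Krt19 was at 0.0251 to 0.329 CPM. The 10 markers of leukocytes, endothelium, fibroblasts and basal cells summed to 12.4 to 13 CPM in mock and 16.1 to 18.7 CPM in p140Cap libraries. Of the 3 that reached the filter level of 0.413 CPM in both groups, 2 were called higher in p140Cap cells by the test described next: the macrophage marker Cd68 went from 2.14 to 3.76 CPM and the fibroblast collagen gene Col1a1 from 2.97 to 5.02 CPM. Pdgfra, the most abundant, was not called (7.18 and 7.67 CPM). The endothelial marker Pecam1, named after its value was seen, was at 0.271 and 0.645 CPM and passed the filter only through the p140Cap libraries, and Ptprc and Col3a1 had no read in any library. The part that the difference in these sums has in the results below was not tested.

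Of the 11800 genes with enough reads for edgeR's quasi-likelihood test, 71.1% were called at an adjusted p under 0.05 (Benjamini-Hochberg), 35.2% as higher and 35.9% as lower in p140Cap cells. Of the 9 network genes, 8 could be tested, and 4 were called higher and 2 lower, a share close to that of all genes. For 6 of the 8, the normalized levels of the groups were fully separate, against 73.4% of all genes tested. Myc and Mxd3 fell, Mxd1, Mxd4, Mxi1 and Mnt rose, and Max and Mycn were not called. In bulk RNA, a change in every cell and a change in the share of cells that express a gene cannot be told apart.

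**Figure D1:**
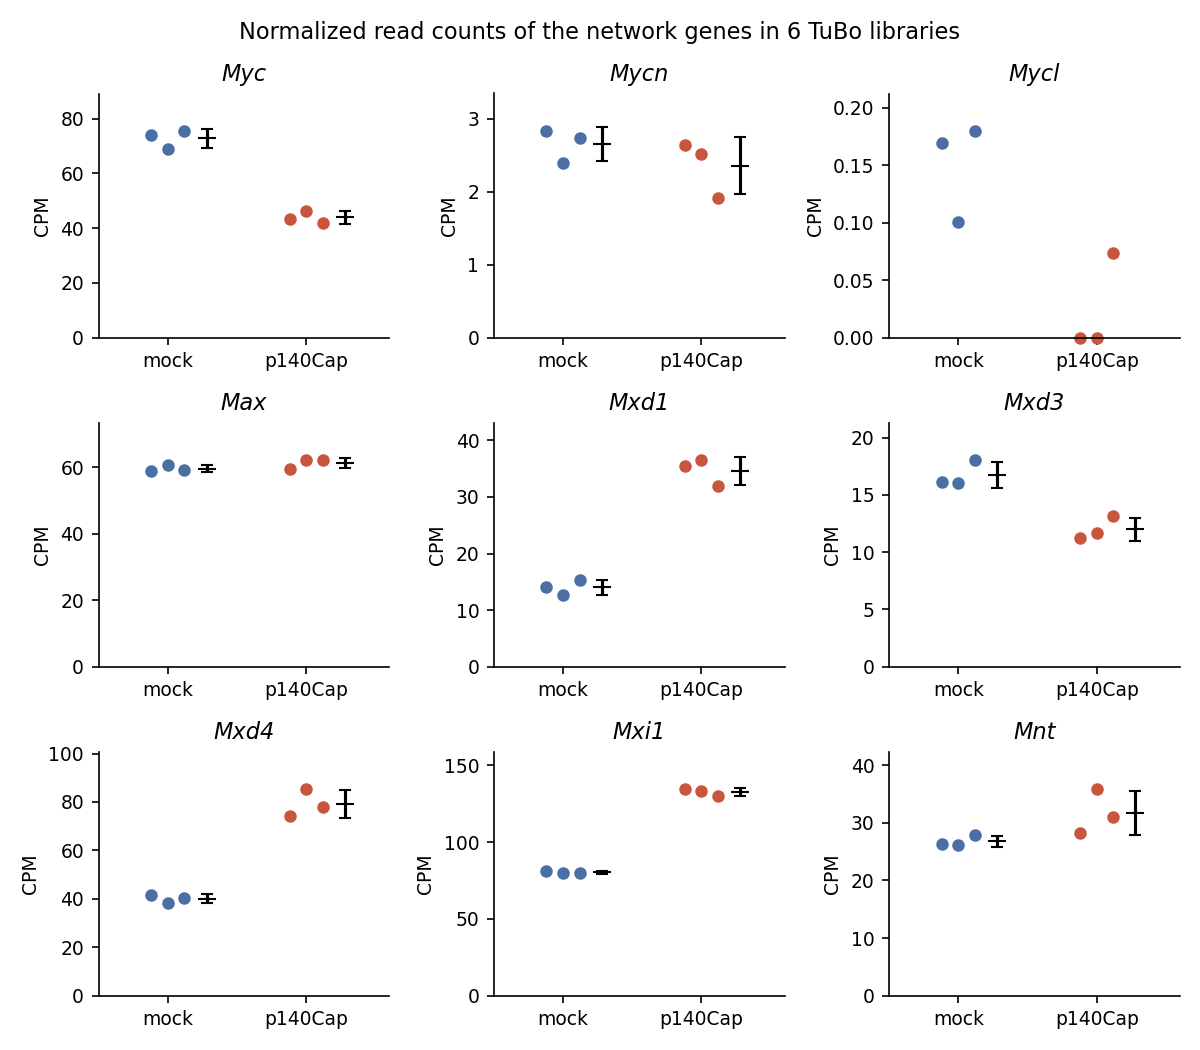
Each panel shows 1 network gene, with the normalized level (CPM) on the vertical axis and 1 point per library for mock (blue) and p140Cap cells (red). Black marks give the mean and SD of 3 libraries and are left out for Mycl, which has too few reads; Myc and Mxd3 sit lower, and Mxd1, Mxd4 and Mxi1 higher, in each p140Cap library.

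Myc, the principal activator in epithelial tumors, was measured at 73.9, 69.0 and 75.6 CPM in the 3 mock libraries and at 43.4, 46.4 and 42.0 CPM in the 3 p140Cap libraries. Every p140Cap library thus lay below every mock library. The mean fell from 72.8 ± 3.40 to 43.9 ± 2.24 CPM (SD, n = 3), so it decreased by 39.7%. Its log2 fold change was -0.73 (SE 0.06, 95% interval -0.85 to -0.61, edgeR adjusted p = 8.18e-09), and 18.1% of all genes tested changed at least as much. Myc (ENSMUSG00000022346) lies at chr15:61985341-61990361 of GRCm38.p6 (RefSeq), and no other tested gene lay within 500 kb of it. Pvt1, the non-coding gene beside it, was not analysed here.

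Mycn, which takes the place of Myc in neural and early progenitor cells, was scarce. Its reads numbered 217, 95 and 91 in mock and 40, 37 and 26 in p140Cap libraries. Normalized levels overlapped between the groups, at 2.39 to 2.84 CPM in mock and 1.91 to 2.64 CPM in p140Cap cells. Its log2 fold change was -0.18, with a 95% interval of -0.53 to 0.18 (edgeR adjusted p = 0.359), which spans no change as well as a decrease of the size measured for Mxd3. Mycl, the third activator, had 13, 4 and 6 reads in mock libraries and 0, 0 and 1 read in p140Cap libraries, which was too few for the test. From the pooled reads, Mycl was 6.68 times as high in mock as in p140Cap cells, within exact 95% bounds of 1.09 and 275 for counting error alone. The activator transcripts of these cells were thus mostly Myc.

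Max, the common partner with which the other proteins of the network bind DNA, was at 59.0, 60.7 and 59.3 CPM in mock cells and at 59.6, 62.3 and 62.2 CPM in p140Cap cells. The groups overlapped, and the log2 fold change of 0.04 had a 95% interval of -0.06 to 0.15 (edgeR adjusted p = 0.47). Of all genes tested, 92.9% of all genes tested changed at least as much as Max did.

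Mxd1, the founding antagonist, had the largest log2 fold change of the 8 network genes tested. It was measured at 14.1, 12.7 and 15.3 CPM in mock libraries and at 35.5, 36.6 and 31.9 CPM in p140Cap libraries, which lay far above them. The mean rose from 14.04 ± 1.32 to 34.6 ± 2.47 CPM (SD, n = 3), 2.48-fold. The log2 fold change was 1.31 (SE 0.08, 95% interval 1.14 to 1.47, edgeR adjusted p = 3.14e-10), and 5.71% of genes changed at least as much. The raw reads of Mxd1 were 1078, 505 and 511 in the mock libraries and 539, 537 and 434 in the much smaller p140Cap libraries. Mxd1 (chr6:86647044-86669234 of GRCm38.p6) had 15 tested neighbours within 500 kb, of which 6 were called higher and 5 lower.

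Mxd4, another antagonist linked to arrest, stood at 41.8, 38.3 and 40.2 CPM in mock cells and at 74.1, 85.5 and 77.8 CPM in p140Cap cells. No library of one group came near those of the other. The mean rose from 40.1 ± 1.71 to 79.1 ± 5.81 CPM (SD, n = 3), 1.97-fold, with a log2 fold change of 0.98 (SE 0.06, edgeR adjusted p = 3.89e-10). Of its 13 tested neighbours, 2 were called higher and 6 lower.

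Mxi1, the most abundant antagonist by read count, was at 81.2, 80.1 and 79.6 CPM in mock cells and at 134.7, 133.0 and 130.0 CPM in p140Cap cells. Its replicates lay close together, with SDs of 0.851 and 2.38 CPM. The log2 fold change was 0.72 (SE 0.05, 95% interval 0.63 to 0.82, edgeR adjusted p = 5.59e-10). Mxi1 lies on chromosome 19 (53310128 to 53373293 of GRCm38.p6), where most genes went the other way: of 413 tested genes of that chromosome, 64.6% were called lower and 12.1% higher, with a median log2 fold change of -0.33. The medians of the chromosomes of the other members lay between -0.08 and 0.02. Within 500 kb of Mxi1, 2 of 7 tested neighbours were called higher and 4 lower. RefSeq lists 3 start sites for Mxi1, and counts per gene add up their transcripts.

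Mxd3, the antagonist tied to S phase, moved against Mxd1, Mxd4 and Mxi1. It was at 16.1, 16.0 and 18.1 CPM in mock libraries and at 11.2, 11.7 and 13.1 CPM in p140Cap libraries, again without overlap. The mean fell from 16.7 ± 1.16 to 12.02 ± 1.01 CPM (SD, n = 3), and the log2 fold change was -0.47 (SE 0.09, 95% interval -0.65 to -0.29, edgeR adjusted p = 0.000108). Of the 2760 bases of Mxd3 exons, 876 are shared with Prelid1 on the other strand in the GENCODE annotation, and, although the library kit keeps the strand, no source used here says whether reads were counted by it. Prelid1, a mitochondrial lipid transfer protein gene, was far more abundant, at 529 ± 27.6 CPM in mock and 560 ± 11.99 CPM in p140Cap cells (SD, n = 3), with a log2 fold change of 0.08 (edgeR adjusted p = 0.147). The part of shared reads in the Mxd3 difference was not tested. Of 20 tested neighbours of Mxd3 within 500 kb, 10 were called lower and 2 higher, with a median log2 fold change of -0.14. Exons of Myc, Mycn, Mycl, Mxd4, Mxi1 and Mnt share 101 to 748 bases with opposite-strand genes that were not analysed here.

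Mnt, the broadly expressed antagonist that is the closest counterpart of Myc in dividing cells, differed least among the called genes. It was at 26.3, 26.2 and 27.8 CPM in mock cells and at 28.2, 35.9 and 31.0 CPM in p140Cap cells, so that the groups were just separate. The log2 fold change was 0.25 (SE 0.08, 95% interval 0.09 to 0.41, edgeR adjusted p = 0.008). Of its 12 tested neighbours, 4 were called higher and 6 lower. Near Max, 4 of 7 tested neighbours were called higher and 0 lower, near Mycn 2 of 2 lower, and near Mycl 3 of 7 higher and 3 lower. The call of Mnt rests on p140Cap replicate 2, without which the log2 fold change was 0.14 (edgeR adjusted p = 0.0859).

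**Figure D2:**
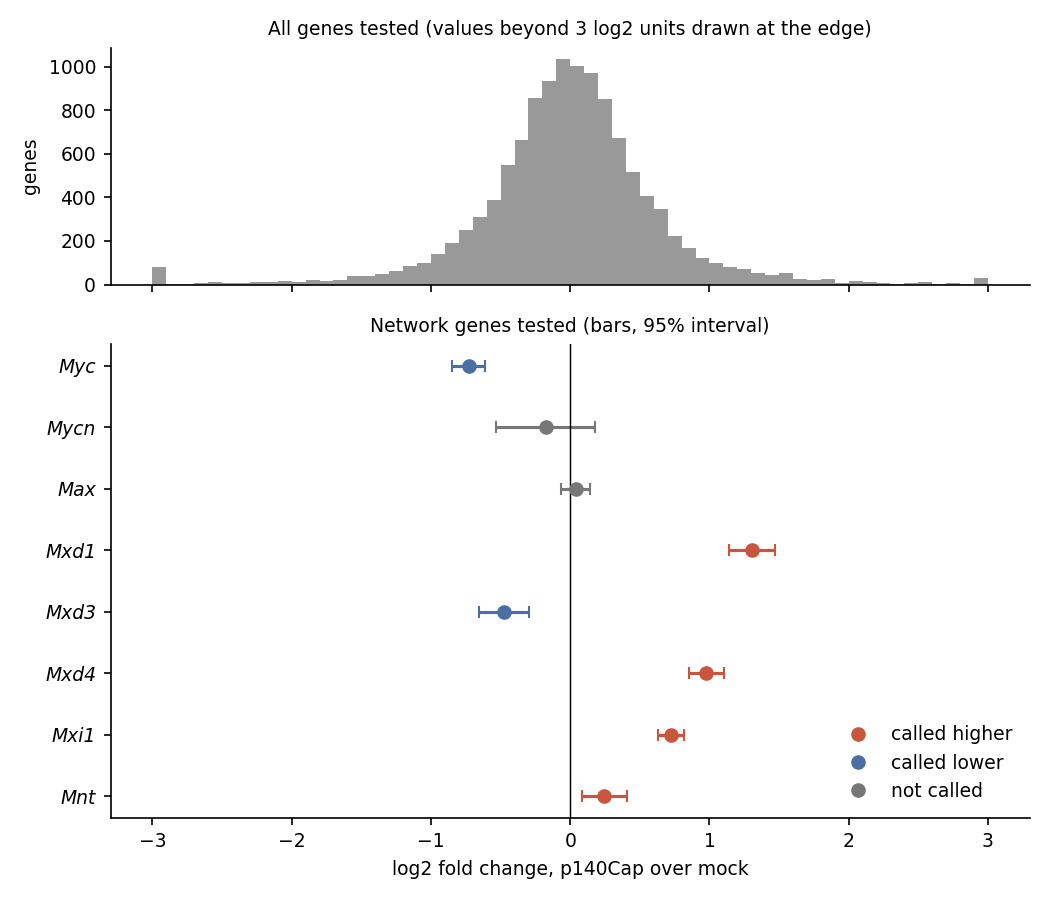
The upper panel is a histogram of the log2 fold change (p140Cap over mock) of the 11800 genes tested, and the lower panel gives the 8 network genes tested, with 95% intervals as bars. Mxd1, Mxd4 and Mxi1 lie between 0.72 and 1.31, Myc at -0.73 and Mxd3 at -0.47, while the intervals of Max and Mycn span 0.

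Levels of different genes can be set side by side only per length, so CPM was divided by the exonic length of each gene in kb. On this scale, the order in mock cells was Myc at 26.7 ± 1.25, Max at 13.9 ± 0.217, Mxi1 at 11.1 ± 0.117, Mxd3 at 6.06 ± 0.422, Mnt at 5.03 ± 0.174, Mxd4 at 4.63 ± 0.198 and Mxd1 at 1.92 ± 0.181 CPM per kb (SD, n = 3). Mycn at 0.575 and Mycl at 0.0357 CPM per kb came last. In p140Cap cells the order of the same levels was Mxi1 at 18.3 ± 0.328, Myc at 16.1 ± 0.820, Max at 14.3 ± 0.351, Mxd4 at 9.14 ± 0.671, Mnt at 5.96 ± 0.731, Mxd1 at 4.73 ± 0.337 and Mxd3 at 4.35 ± 0.365 CPM per kb (SD, n = 3), again followed by Mycn and Mycl. Among neighbours in these orders, only Mxd1 and Mxd3 in p140Cap cells overlapped between their libraries. Per exonic length, Mxi1 thus passed Myc, and Mxd4 moved up from the sixth to the fourth place.

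The sum over the 9 genes was 67.86 to 71.57 CPM per kb in mock and 71.65 to 76.2 CPM per kb in p140Cap libraries, on the scale of exonic length. Myc made up 38.2% ± 0.798 of the sum in mock cells and 21.9% ± 0.522 in p140Cap cells (SD, n = 3). The share of Mxi1 was 15.9% ± 0.484 and 25.0% ± 0.937, that of Mxd4 6.63% ± 0.213 and 12.5% ± 0.508, and that of Mxd1 2.74% ± 0.186 and 6.45% ± 0.378 in the same groups. The share of Max was 19.8% ± 0.821 and 19.4% ± 0.528 on this scale. The per-length level of the 3 activators over that of the 5 antagonists was 0.966, 0.924 and 0.960 in the mock libraries and 0.398, 0.397 and 0.378 in the p140Cap libraries. That of the 5 antagonists over Max rose from 1.98 to 2.14 in mock libraries to between 2.90 and 3.05 in p140Cap libraries. These ratios describe the libraries and carry no test, since the genes were chosen together.

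**Figure D3:**
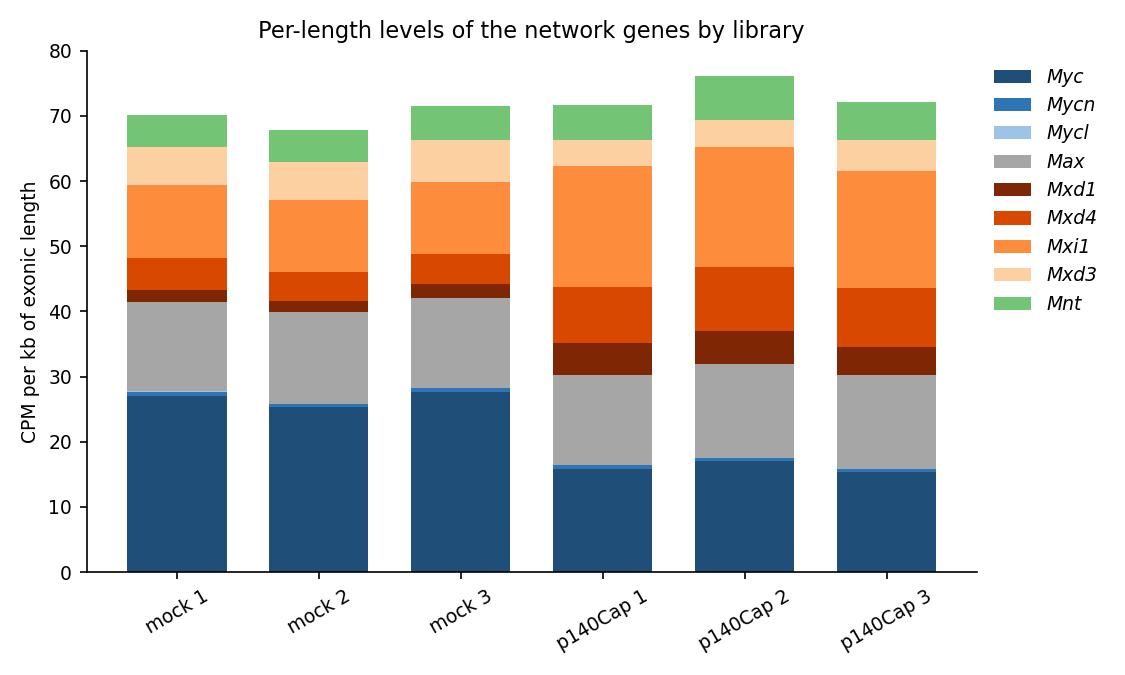
Bars give the per-length level (CPM per kb of exonic length) of the 9 network genes, stacked, in each of the 6 libraries. The blue Myc segment is 25.3 to 27.7 CPM per kb in mock and 15.4 to 17.0 CPM per kb in p140Cap libraries, while the brown to orange segments of Mxd1, Mxd4 and Mxi1 together go from 17.2 to 17.9 up to 31.3 to 33.2.

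The order between genes depends on the length used, since the coding sequence was 1362 of 2730 exonic bases for Myc, 480 of 4306 for Max and 681 of 7322 for Mxd1. Per kb of the longest coding sequence, Mxi1 and Mxd4 were above Myc already in mock cells, where Max was at 124, Mxi1 at 90.7, Mxd4 at 63.9 and Myc at 53.5 CPM per kb. In p140Cap cells Mxi1 was at 150, Max at 128, Mxd4 at 126, Mxd1 at 50.9 and Myc at 32.2 CPM per kb, with the libraries of Max and Mxd4 overlapping. The 9-gene sum on this scale rose from 397 ± 6.54 to 526 ± 16.6 CPM per kb (SD, n = 3), so that Max became a smaller part of it. Myc made up 13.5% of the sum in mock and 6.13% in p140Cap cells. Activators over antagonists were then 0.255 ± 0.00583 in mock and 0.0932 ± 0.00233 in p140Cap cells (SD, n = 3). The ratio of activators to antagonists and the share of Myc were lower in p140Cap cells on both scales. The 9-gene sum was higher on both, though the groups were barely separate per exonic length. The change in the share of Max depended on the scale.

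Windows of 300 bases that reach from upstream sequence just past a transcript start listed in RefSeq were read for 8 of the 9 genes (GRCm38.p6, the assembly also called mm10). Distances are from that transcript start, which is the outermost start of the gene for Mxd4 and Mycn, while the gene begins further upstream for Max, Mxd1, Mxd3, Mycl, Mnt and Mxi1. The E-box CACGTG, which reads the same on both strands, occurred in those of Mxd4, Mnt and Max, and in 7.15% of the 32851 windows of the whole table. By gene, it occurred in 9.12% of the 16222 genes in the counts that have a window. The E2F consensus, searched on both strands as TTTGGCGC, TTTGCCGC, TTTCGCGC and TTTCCCGC, occurred in the window of Mycn only, where 3 matches lie close together and 2 of them overlap, and in 2.26% of all windows. Neither was found in those of Mxd1, Mxd3, Mycl or Mxi1. The windows with a match are printed here 5' to 3' on the strand of the gene, with the matches in capitals, at chr5:34187661-34187960 (minus strand, E-box 219 bases before the start), chr11:74830674-74830973 (plus strand, 123 bases before), chr12:76962199-76962498 (minus strand, 3 bases before) and chr12:12941787-12942086 (minus strand). Of the genes with the E-box, Mxd4 and Mnt rose and Max was not called, while Mxd1 and Mxi1 rose without one in their windows.
Mxd4: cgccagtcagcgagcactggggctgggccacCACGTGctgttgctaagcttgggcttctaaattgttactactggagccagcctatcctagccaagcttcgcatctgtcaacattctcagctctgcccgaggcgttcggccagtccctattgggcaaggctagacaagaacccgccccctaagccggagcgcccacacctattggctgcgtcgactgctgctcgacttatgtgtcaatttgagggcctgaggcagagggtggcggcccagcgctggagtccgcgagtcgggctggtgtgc
Mnt: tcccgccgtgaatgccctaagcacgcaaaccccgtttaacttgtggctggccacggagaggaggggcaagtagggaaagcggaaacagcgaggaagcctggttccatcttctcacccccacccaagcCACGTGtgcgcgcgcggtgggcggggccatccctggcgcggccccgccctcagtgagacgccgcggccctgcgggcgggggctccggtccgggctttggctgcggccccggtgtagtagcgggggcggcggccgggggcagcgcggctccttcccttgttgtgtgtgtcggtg
Max: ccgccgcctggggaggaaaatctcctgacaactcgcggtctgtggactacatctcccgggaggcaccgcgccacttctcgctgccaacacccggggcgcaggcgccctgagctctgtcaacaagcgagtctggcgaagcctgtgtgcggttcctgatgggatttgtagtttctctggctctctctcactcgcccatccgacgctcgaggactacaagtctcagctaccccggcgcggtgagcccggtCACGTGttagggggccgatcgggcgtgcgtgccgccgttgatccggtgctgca
Mycn: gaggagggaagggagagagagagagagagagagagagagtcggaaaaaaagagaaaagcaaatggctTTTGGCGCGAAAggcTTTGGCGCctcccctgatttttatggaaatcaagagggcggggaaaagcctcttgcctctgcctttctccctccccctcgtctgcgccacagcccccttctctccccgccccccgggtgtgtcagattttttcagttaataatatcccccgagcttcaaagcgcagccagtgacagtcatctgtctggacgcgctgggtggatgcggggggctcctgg

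The Mlx branch is tied to the network by Mga, which pairs with Max, and by Mlx, whose partners MondoA (Mlxip) and ChREBP (Mlxipl) respond to glucose. The 6 genes listed around this branch include Mga, the MondoA target Txnip and its paralog Arrdc4. Of the 6, 5 were tested, 4 were higher (80%, against 35.2% of all genes tested) and none was lower. Their median log2 fold change was 0.30, while that of all genes tested was -0.0015. The classical MondoA target Txnip, which curbs glucose uptake, was at 42.2, 50.3 and 41.9 CPM in mock and at 167.5, 153.1 and 163.3 CPM in p140Cap libraries, with a log2 fold change of 1.85 (SE 0.07, edgeR adjusted p = 1.06e-12). Its paralog Arrdc4 rose from 17.2 ± 0.988 to 39.8 ± 2.17 CPM (SD, n = 3), a log2 fold change of 1.22. Mga and Mlxip rose by less, with log2 fold changes of 0.30 and 0.26, the latter named after its value was seen. Mlx itself was at 35.4 CPM in mock and 35.3 CPM in p140Cap cells (log2 fold change -0.0011, edgeR adjusted p = 0.989), and Mlxipl was nearly without reads.

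Of 16 subunits of the Sin3-HDAC corepressor that Mxd proteins and Mnt recruit, 7 were lower (43.8%, against 35.9% of all genes tested) and 4 higher (25%, against 35.2%), shares near the background, with a median log2 fold change of -0.08. The scaffold Sin3b rose from 119 ± 4.30 to 140 ± 1.89 CPM (SD, n = 3), a log2 fold change of 0.23, and Arid4b and Arid4a had log2 fold changes of 0.19 and 0.17. The other scaffold, Sin3a, was not called, at 0.08 (edgeR adjusted p = 0.165). Brms1, which lies on chromosome 19, fell by 0.85 on the log2 scale, Brms1l by 0.73 and the deacetylase Hdac1 by 0.46. With libraries thinned to the smallest total, 2 rather than 4 subunits were called higher.

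Among 17 cofactors that bind Myc, 9 were lower (52.9%, against 35.9% of all genes tested) and 2 higher (11.8%, against 35.2%), with a median log2 fold change of -0.13. The ATPase Ruvbl1, the actin-related subunit Actl6a and the acetyltransferase Kat2a fell by 0.81, 0.81 and 0.79 on the log2 scale. Trrap, the large scaffold through which Myc recruits acetyltransferases, rose from 214 ± 17.3 to 285 ± 17.6 CPM (SD, n = 3), a log2 fold change of 0.41, and Paf1 rose by 0.24. With thinned libraries, 1 rather than 2 was called higher. The acetyltransferase gene Ep300 (log2 fold change 0.08) and Zbtb17 (-0.12), whose product Miz1 guides Myc to repressed genes, were among 6 that were not called.

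Of 16 genes for proteins that set the stability of Myc protein, 8 were lower (50%, against 35.9% of all genes tested) and 5 higher (31.2%, against 35.2%), with a median log2 fold change of -0.15. Skp2, a ubiquitin ligase subunit of the cell cycle, fell from 49.3 ± 2.54 to 24.3 ± 1.14 CPM (SD, n = 3), a log2 fold change of -1.03. The deubiquitinase Usp36 fell by 0.65, and Cip2a, an inhibitor of the phosphatase PP2A that is listed under C330027C09Rik, fell by 0.48. Pim1, a kinase that stabilizes Myc, rose by 0.76, the PP2A subunit Ppp2r5a by 0.52 and the deubiquitinase Usp28 by 0.39 on the log2 scale. Gsk3b, which marks Myc for degradation, was not called, at 0.10 (edgeR adjusted p = 0.116). The sequencing gives no measure of Myc protein.

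Genes widely used as Myc-activated targets were then read in 3 lists. The first held 28 genes, most of them for ribosome biogenesis in the nucleolus. Of these, 28 were tested and 28 were lower in p140Cap cells, against 35.9% of all genes tested, and the groups overlapped for none of them. Their log2 fold changes lay between -3.16 and -0.24, with a median of -1.01. Per library, the median difference from the mock mean was -1.04, -0.94 and -1.04 in the p140Cap libraries and -0.01 to 0.02 in the mock ones. Without Nolc1, Rrp12 and Rcl1, which lie on chromosome 19, the median of the other 25 was -0.94, and 25 were lower.

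Rrp12, needed for export of ribosomal subunits, was at 33.8, 34.0 and 34.0 CPM in mock libraries and at 4.48, 4.02 and 2.79 CPM in p140Cap libraries. Its log2 fold change was -3.16 (SE 0.10, edgeR adjusted p = 4.05e-13). The helicase Ddx21 fell from 157 ± 8.48 to 32.9 ± 3.13 CPM (SD, n = 3), a log2 fold change of -2.26, and the nucleolar chaperone Nolc1 from 161 ± 8.46 to 37.9 ± 0.941 CPM, a log2 fold change of -2.08. The abundant nucleolin gene Ncl went from 1221 ± 23.1 to 688 ± 49.1 CPM (SD, n = 3; log2 fold change -0.83). Pes1 had the smallest change of the list, from 139 ± 1.22 to 117 ± 3.10 CPM (log2 fold change -0.24). Ncl and Pes1 were named after their values were seen.

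**Figure D4:**
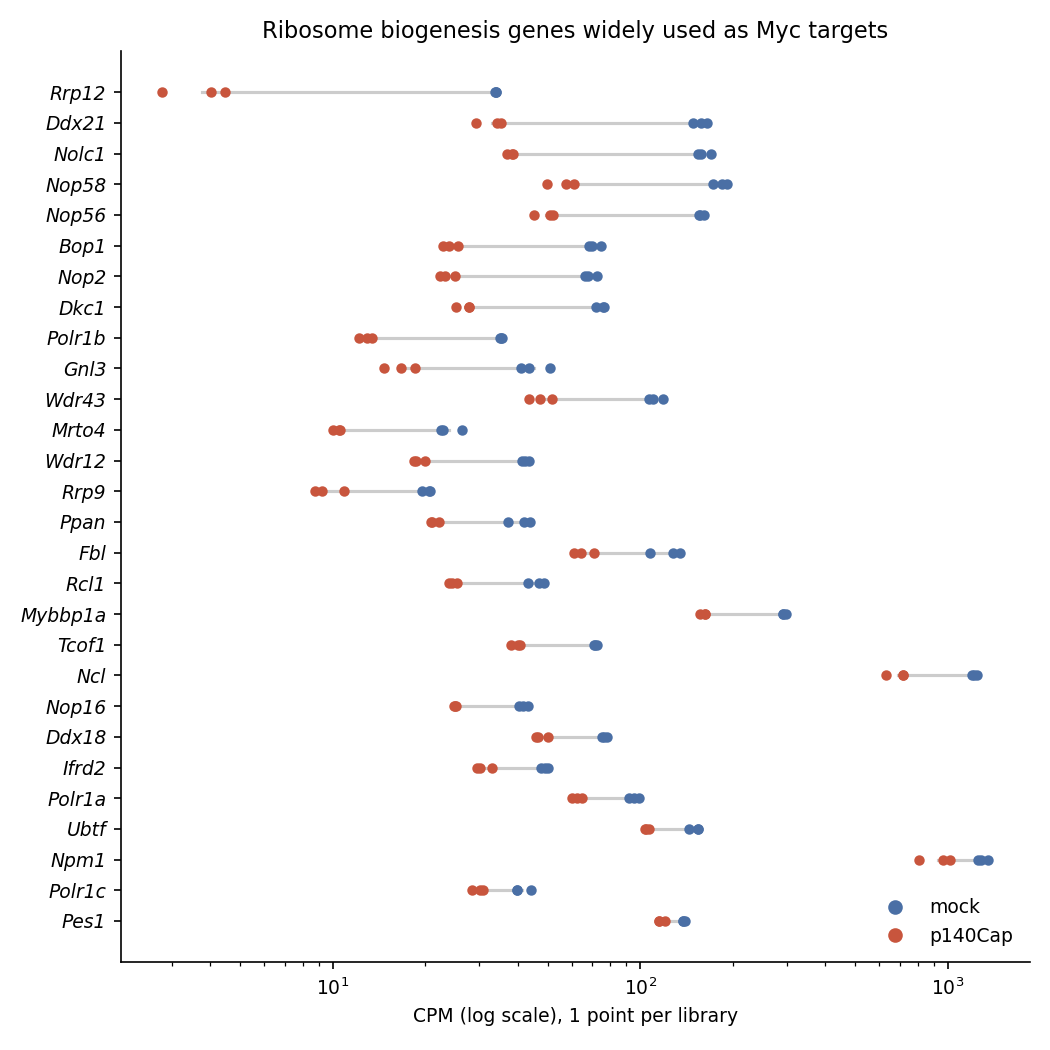
Each row is 1 of 28 genes, most of them for ribosome biogenesis. CPM is on a log scale, with 1 point per library for mock (blue) and p140Cap (red) cells, joined by a line between the group means. In all 28 rows the 3 red points lie to the left of the 3 blue ones, from Rrp12 with a log2 fold change of -3.16 down to Pes1 with -0.24.

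Of these 28 genes, 23 have a start site window in the table, and 4 of the 23 (17.4%) hold the E-box CACGTG, against 9.12% of the 16222 genes in the counts that have a window. The median log2 fold change was -1.06 for those with and -1.07 for those without it, so the medians were close. As examples, 2 such windows are shown, with the E-box in capitals, for the rRNA methyltransferase gene Nop2 (chr6:125131633-125131932 of GRCm38.p6, plus strand, 60 bases before the start) and for Wdr43 (chr17:71615965-71616264, plus strand, 18 bases into a transcript whose gene begins further upstream). Nop2 fell from 68.7 ± 3.26 to 23.6 ± 1.36 CPM and Wdr43 from 112 ± 5.88 to 47.4 ± 4.10 CPM (SD, n = 3), log2 fold changes of -1.54 and -1.24. These 2 had the largest decreases of the 4 genes and were chosen after their values were seen; the others, Mybbp1a and Pes1, had log2 fold changes of -0.87 and -0.24.
Nop2: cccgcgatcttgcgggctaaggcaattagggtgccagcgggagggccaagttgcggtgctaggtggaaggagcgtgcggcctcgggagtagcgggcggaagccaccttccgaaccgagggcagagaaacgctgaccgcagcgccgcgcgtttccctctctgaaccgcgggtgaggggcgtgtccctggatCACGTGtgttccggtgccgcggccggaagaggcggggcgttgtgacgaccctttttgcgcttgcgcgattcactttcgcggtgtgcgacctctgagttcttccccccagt
Wdr43: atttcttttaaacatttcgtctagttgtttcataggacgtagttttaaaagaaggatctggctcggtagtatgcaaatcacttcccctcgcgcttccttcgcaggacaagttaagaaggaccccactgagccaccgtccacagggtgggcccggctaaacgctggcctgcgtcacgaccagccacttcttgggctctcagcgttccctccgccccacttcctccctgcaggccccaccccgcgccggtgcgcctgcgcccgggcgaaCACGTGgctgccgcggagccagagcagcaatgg

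Of 32 metabolic and growth targets, 25 were lower (78.1%, against 35.9% of all genes tested) and 4 higher (12.5%, against 35.2%), with a median log2 fold change of -0.64. Ctps, the CTP synthase gene, fell from 42.9 ± 3.57 to 7.55 ± 0.840 CPM (SD, n = 3), a log2 fold change of -2.51. Srm, which makes spermidine, fell by 1.90 and Cad, which starts pyrimidine synthesis, fell by 1.59 on the log2 scale. The 4 genes that rose were all of glucose uptake and glycolysis, namely Hk2 (log2 fold change 0.50), Slc2a1 (0.44), Ldha (0.16) and Pkm (0.15), the last named after its value was seen. Paics and Tfrc were among the genes not called. Without mock replicate 2, 2 rather than 4 were called higher. E-boxes were found in the windows of 9 of 27 genes (33.3%) of this list, against 9.12% of the genes in the counts that have a window. The median log2 fold change of these 9 genes was -0.54, and it was -0.69 for the others of the list.

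Of 14 cell cycle targets, 10 were lower (71.4%, against 35.9% of all genes tested) and 2 higher (14.3%, against 35.2%), with a median log2 fold change of -0.47. Ccnd2 was nearly lost, with 1494, 724 and 606 reads in mock libraries and 5, 7 and 1 in p140Cap libraries, and passed the filter only through the former. Of the other 13 genes tested, 9 were lower and 2 higher. Ccne1 fell by 2.59 and E2f1 by 0.75 on the log2 scale. Tert, which encodes the catalytic subunit of telomerase and is a classical Myc target, went the other way, from 18.996 ± 0.616 to 31.8 ± 2.27 CPM (SD, n = 3; log2 fold change 0.75), and Cul1 rose by 0.18. Ccnd1 was not called, with a log2 fold change of 0.02 (edgeR adjusted p = 0.738).

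Of 12 genes widely used as targets repressed by Myc, 10 had enough reads, 8 were higher (80%, against 35.2% of all genes tested), 1 was lower (10%, against 35.9%) and the median log2 fold change was 0.49. Ndrg1, a differentiation gene, rose from 16.9 ± 1.12 to 94.0 ± 6.12 CPM (SD, n = 3), a log2 fold change of 2.47 (SE 0.06, edgeR adjusted p = 3.39e-14). Ddit3, a stress response factor, rose by 0.81, and Cdkn1a, the p21 inhibitor of cyclin-dependent kinases, rose from 46.6 ± 2.28 to 75.6 ± 3.82 CPM (log2 fold change 0.70). Clu was the gene that fell, by 0.51 on the log2 scale, and Cebpa was not called, at -0.30 (edgeR adjusted p = 0.464). Ndrg2, named after its value was seen, was at 0.326 CPM in mock and 2.65 CPM in p140Cap cells and passed the filter on low counts only through the p140Cap libraries, as Cebpa did only through the mock libraries. Of the other 8 genes tested, 7 were higher and 1 lower. Cdkn1c and Cdkn2b had 0 reads in all libraries. Of the 141 genes in the 8 lists, 45 share 10 to 3576 exonic bases with a gene of the counts on the opposite strand, with the most for Ddit3, so their counts are uncertain if strand was not used.

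**Figure D5:**
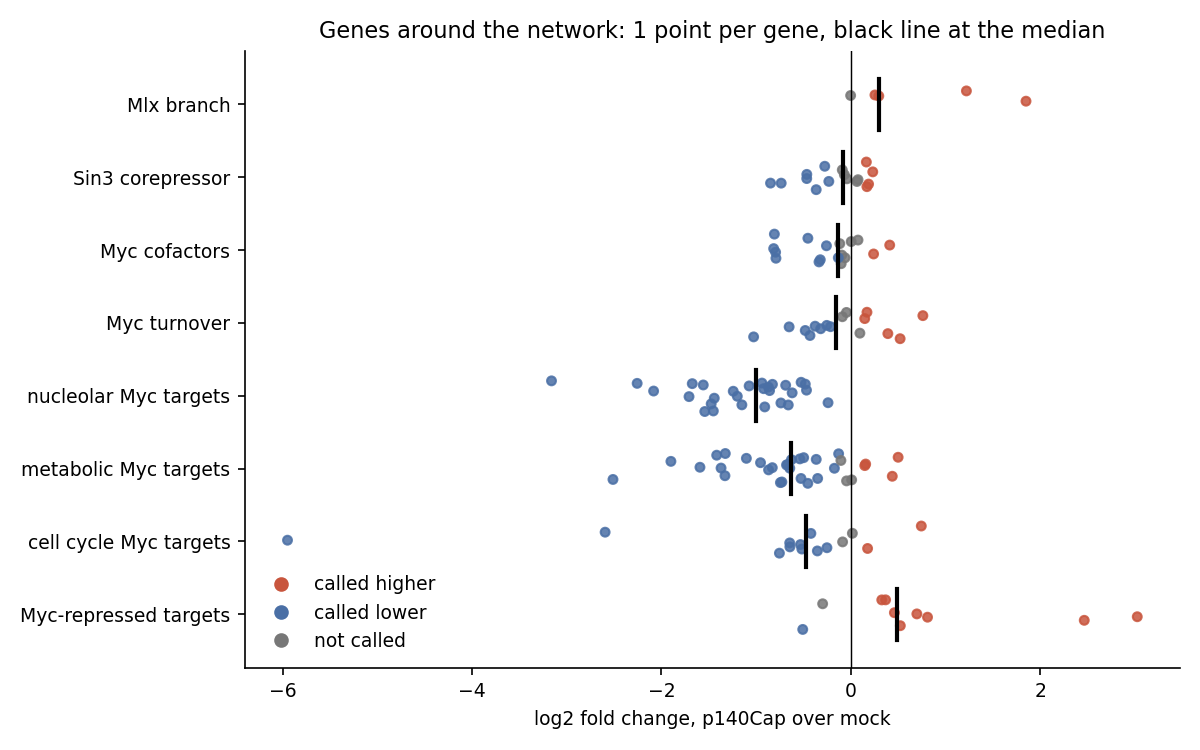
Points give the log2 fold change (p140Cap over mock) of each tested gene in 8 lists around the network, colored by whether edgeR called it higher (red), lower (blue) or neither (grey), and black lines mark the medians. The medians run from -1.01 for nucleolar targets to 0.49 for repressed targets.

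Genes whose level followed a member most closely over the 6 libraries were looked up among the other 8395 tested genes whose log2 CPM averaged 4 or more. For Myc these were Arhgef10, Col2a1 and 1810055G02Rik, with Pearson's r of 0.9996, 0.9995 and 0.9993 for log2 CPM, and for Mxd1 they were Klhl26, Eno2 and Foxo3, with r of 0.9999, 0.9994 and 0.9993. Mean levels of Arhgef10 went from 58.5 to 26.2 CPM, and those of Foxo3, a forkhead transcription factor, from 88.5 to 160 CPM. These values are a description over 6 libraries that fall into 2 groups of unequal depth, and they carry no test.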

How the data were processed

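Whole-number counts per gene for the 6 RNA-Seq libraries were used as deposited, with replicates kept apart. RNA was extracted with Trizol and sequenced from polyA-selected libraries, with samples and controls mixed in each flow cell. The submitters' processing notes name STAR 2.5, RSEM 0.1.1 and mm10 without giving their roles, whereas the study's data statement names GRCm39. If RSEM made the values, they are estimated counts rounded to whole numbers. The libraries were made with a stranded TruSeq kit, but no source used here says whether reads were counted by strand.

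Differences (p140Cap over mock) were tested with edgeR 4.0.16 in R 4.3.3 by the quasi-likelihood test, with TMM factors, filterByExpr and Benjamini-Hochberg adjustment over 11800 genes at a threshold of 0.05. The SE of a log2 fold change was taken from its size and F statistic. CPM used TMM-adjusted totals. Per-length levels used exonic lengths of a current GENCODE release. The counts carry an older symbol for Cip2a, so reads may have been counted over other exons than these. Positions and start site windows came from RefSeq (GRCm38.p6), where 93.6% of 21960 genes had a position. The procedure was tested before use on simulated data in which only a small part of the genes changed. It was not tested under a change as broad as the one called here. Alternatives were DESeq2 1.42.0, limma-voom (limma 3.58.1), other factors and filters, thinning to the smallest total, a replicate block, each library left out and, chosen after seeing the data, coding length.

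The network genes and all lists were chosen with earlier results of these data known. All 9 network genes were named, and each list contributed at most 3 called genes per direction, those with the largest log2 fold change at a mean log2 CPM of 1 or more. Others are named as chosen after their values were seen or as genes that were not called. Library totals of 13770385 to 75506562 reads set the precision, and intervals on reads cover counting error only. Paired libraries of a group differed by more than sampling noise, with mean chi-square values per gene of 1.75 to 10.7, so that none was counted as a duplicate.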

Additional observations from a re-analysis of the deposited data

How the results depend on the processing

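The counts of all genes, network genes and list genes called and the per-length shares of Myc and Mxi1 gave 300 values under the alternatives, and 293 of them lay within 1.5 times the reported count or 1 SD of the reported share. Of these, 4 are shares with RLE factors, which cannot change a share within a library. Shares with 1 library left out were also bound to lie within 1 SD of the reported share. Only the shares per coding length could move, and all of them did. With libraries thinned to the smallest total, 2 Sin3 subunits and 1 Myc cofactor were called higher, and the uncalled log2 fold changes of Mycn (0.12) and Max (-0.0243) turned sign. Without 1 replicate, the metabolic targets called higher numbered 2 to 4. Per coding length, Myc made up 13.46% of the 9-gene sum in mock and 6.127% in p140Cap cells, and Mxi1 22.84% and 28.5%. Over 14 fits, the log2 fold change was -0.77 to -0.70 for Myc, 1.25 to 1.36 for Mxd1, -0.54 to -0.43 for Mxd3, 0.92 to 1.02 for Mxd4 and 0.69 to 0.76 for Mxi1, with a call in all 14. For Mnt it was 0.14 to 0.32, with a call in 13. Adjusted p-values of Mnt reached from 0.00149 to 0.0859. A length from RefSeq proteins was not run.

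Replicate numbers are shared between the groups, and the deviations of same-numbered libraries correlated at -0.0299, -0.106 and -0.0573. Whether same-numbered libraries also share a culture or a run cannot be read from these values. With the replicate number as a block, 4 network genes were called higher and 2 lower, as without it. The mock libraries held 33058719 reads or more and the p140Cap libraries 15364850 or fewer, and Mycl had few reads in both groups.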
